A study of Mus musculus with 10 samples.

Results

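The transcription factors that build the gonad and set it on the path of a testis were followed in cultured fetal mouse testes after inhibition of glycogen breakdown. The genes were chosen by symbol, with earlier results of these data known. They are Wt1, Lhx9, Gata4, Zfpm2, Nr5a1, Nr0b1, Sox9, Sox8, Sox10 and Dmrt1, which make 10 of the 24470 gene entries counted. The gene lists below were chosen with the same knowledge. Gonads of C57BL/6 male embryos were taken at E12.5, and from each of 5 embryos 1 gonad was cultured for 48 h with 75 µM of a glycogen phosphorylase inhibitor (GPI) while the other received the vehicle, DMSO. Glycogen phosphorylase releases glucose units from glycogen, and the study asked what a fetal testis does when that step is blocked. RNA of the whole gonad, freed of the mesonephros, was sequenced as 1 library per gonad, so that every cell type of the testis contributed. The libraries held between 10203679 and 15635322 counts.

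In the mammalian embryo the gonad arises as a ridge on the mesonephros that can become either a testis or an ovary. WT1, LHX9, GATA4 and NR5A1 are needed for this ridge to form, and GATA4 needs its cofactor ZFPM2 for the XY gonad to become a testis, in which SRY turns on Sox9 in the supporting cells. SOX9 then directs these cells to become Sertoli cells, SOX8 and SOX10 are its close relatives in the SOXE group, and DMRT1 later protects the Sertoli fate.

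Of the 10 factors, 5 were higher with GPI and 0 were lower in the quasi-likelihood F test of edgeR, run on 13941 genes with the mouse as a block and called at a Benjamini-Hochberg adjusted p under 0.05. Over all tested genes, 11.1% were called higher and 11.9% lower (1544 and 1654 genes). With libraries scaled by their total counts only, 1244 genes were called higher and 1968 lower. For the 10 factors, edgeR at an unadjusted p under 0.05 again gave 5 higher and 0 lower, and DESeq2 also called 5 higher and 0 lower. The genes called higher were Sox8, Nr5a1, Sox9, Gata4 and Dmrt1. The median log2 fold change was 0.41 over the 10 factors and 0.02 over all tested genes. By mouse, the median log2 ratio over the 10 factors was -0.03, 0.02, 0.49, 0.75 and 0.56 in mice 1 to 5, so that it was near 0 in mice 1 and 2, where 5 of 10 factors were higher. Because RNA of whole gonads was measured, these counts alone cannot tell fewer cells of a type from less RNA per cell. The same holds for more of either. For germ cells, the paper counted cells in stained testes after the same treatment and found fewer. Values below are TMM-normalized counts, which put the 10 libraries on the scale of their average effective size.

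**Figure D1:**
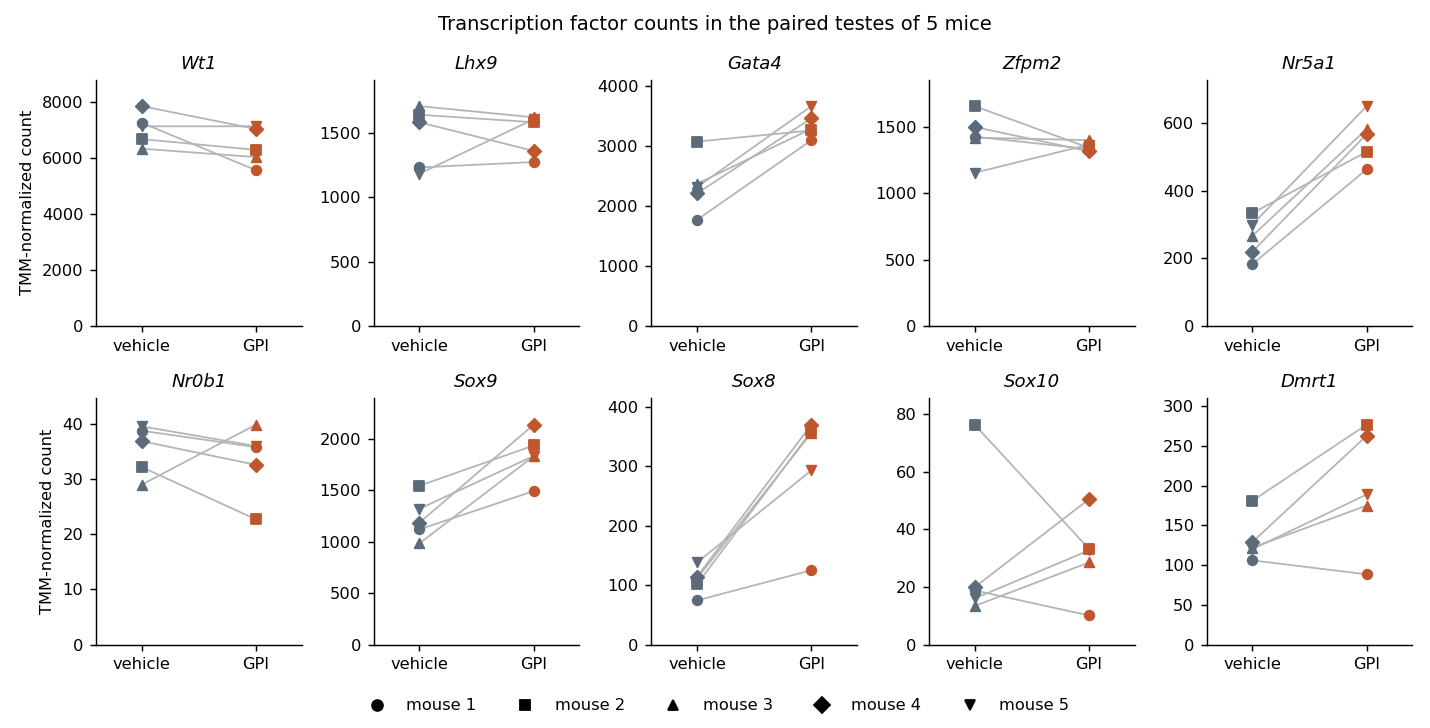
TMM-normalized counts of the 10 transcription factors (vertical axes, each from 0) in the vehicle and GPI testes of 5 mice; each marker shape is a mouse and each line joins its 2 gonads. The 5 GPI values lie above the 5 vehicle values for Nr5a1 and Gata4, the lines of Lhx9, Zfpm2 and Nr0b1 run in both directions, and those of Wt1 fall in mice 1 to 4 and are nearly level in mouse 5.

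Wt1 encodes a zinc finger protein needed for the gonadal ridge and, later, for Sertoli cells. The gene (Entrez 22431, mm10 chr2:105126529-105173614, plus strand) had normalized counts of 7250, 6667, 6324, 7843 and 7122 in the vehicle testes of mice 1 to 5, and of 5556, 6281, 6025, 7027 and 7124 in the GPI testes of the same mice. The ranges overlapped, and GPI was the lower gonad in mice 1 to 4, while mouse 5 had nearly equal values. The means were 7041 ± 580 with vehicle and 6403 ± 668 with GPI (SD, n = 5). The log2 fold change of -0.14 had a 95% interval from -0.29 to 0.01, and the Benjamini-Hochberg adjusted p of edgeR's quasi-likelihood test was 0.182. With libraries scaled by their total counts only, the same test gave an adjusted p of 0.0496 for Wt1, on a log2 fold change of -0.19.

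LHX9 is a LIM homeodomain protein of the gonadal ridge that stays on in interstitial cells. Lhx9 (Entrez 16876, chr1:138825186-138847579, minus strand) had 1231, 1640, 1707, 1582 and 1182 normalized counts with vehicle and 1273, 1582, 1620, 1359 and 1605 with GPI. The groups overlapped over nearly their whole range, with GPI above vehicle in 2 of 5 mice. Its log2 fold change was 0.03, with a 95% interval from -0.17 to 0.23, and it turned to -0.02 with total counts only and to -0.07 without mouse 5.

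GATA4 is a zinc finger factor of the somatic cells of the gonad. Gata4 (Entrez 14463, chr14:63198914-63245271, minus strand) had 1772, 3077, 2373, 2212 and 2317 normalized counts with vehicle and 3099, 3263, 3290, 3466 and 3669 with GPI. Each GPI library was above each vehicle library, but the margin was narrow, because the vehicle testis of mouse 2 was close to the lowest GPI value. Among the 10 factors, 2 had all 5 GPI libraries above all 5 vehicle libraries and 0 had them all below, against 7.07% and 9.04% of all tested genes. Gata4 rose 1.45-fold (log2 fold change 0.53 ± 0.09 SE, higher in 5 of 5 mice), and the Benjamini-Hochberg adjusted p of edgeR's quasi-likelihood test was 0.000845. The coefficient of variation was 20.0% with vehicle and 6.47% with GPI.

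ZFPM2, also called FOG2, binds GATA4 and changes its activity. Zfpm2 (Entrez 22762, chr15:40655042-41104592, plus strand) had 1424, 1654, 1417, 1497 and 1153 normalized counts with vehicle and 1331, 1340, 1398, 1314 and 1364 with GPI. The GPI values fell inside the vehicle range. The log2 fold change was -0.07, with a 95% interval from -0.26 to 0.11. Partner and cofactor were thus measured in the same libraries with different outcomes, and the ratio between them is given below.

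NR5A1, also called SF1, is a nuclear receptor that acts in the ridge, in Sertoli cells and in steroid-producing Leydig cells. Nr5a1 (Entrez 26423, chr2:38692656-38714542, minus strand) had 183, 334, 267, 220 and 300 normalized counts with vehicle and 464, 516, 583, 568 and 651 with GPI. All GPI values were above all vehicle values, and the gap between the groups was wide. Nr5a1 rose 2.16-fold (log2 fold change 1.11 ± 0.12 SE, higher in 5 of 5 mice), and the Benjamini-Hochberg adjusted p of edgeR's quasi-likelihood test was 1.35e-05. The smallest rise was in mouse 2 (log2 ratio 0.63) and the largest in mouse 4 (1.36).

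NR0B1, also called DAX1, is an orphan receptor that represses NR5A1 activity. Nr0b1 (Entrez 11614, chrX:86191775-86195947, plus strand) had 38.8, 32.2, 29.0, 36.9 and 39.6 normalized counts with vehicle and 35.8, 22.7, 39.9, 32.6 and 36.0 with GPI. These values overlapped, and they rest on between 26 and 52 raw counts per library. The log2 fold change was -0.09, and its 95% interval from -0.71 to 0.52 spans 0.613-fold to 1.44-fold.

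SOX9 is the central regulator of Sertoli cell fate. Sox9 (Entrez 20682, chr11:112782210-112787757, plus strand) had 1121, 1545, 984, 1185 and 1321 normalized counts with vehicle and 1494, 1938, 1833, 2141 and 1836 with GPI. Only the GPI testis of mouse 1 fell within the vehicle range, just under the vehicle testis of mouse 2. Sox9 rose 1.51-fold (log2 fold change 0.59 ± 0.09 SE, higher in 5 of 5 mice), and the Benjamini-Hochberg adjusted p of edgeR's quasi-likelihood test was 0.000408. The log2 ratio of GPI to vehicle ran from 0.33 in mouse 2 to 0.90 in mouse 3.

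SOX8 shares its DNA-binding domain type and much of its function with SOX9 in Sertoli cells. Sox8 (Entrez 20681, chr17:25565893-25570686, minus strand) had 74.2, 101, 111, 114 and 138 normalized counts with vehicle and 125, 359, 356, 370 and 293 with GPI. The GPI testes of mice 2 to 5 were well above every vehicle testis, and that of mouse 1 lay inside the vehicle range although above its own partner. Sox8 rose 2.69-fold (log2 fold change 1.43 ± 0.16 SE, higher in 5 of 5 mice), and the Benjamini-Hochberg adjusted p of edgeR's quasi-likelihood test was 2.66e-05. This was the largest log2 fold change among the 10 factors.

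RefSeq promoters (build GRCm38.p6, 250 bases before to 50 after the start) were matched for 3 of the 10 factors, and these 3 are printed because they were the ones to be had: that of Sox8, which was called higher, and those of Nr0b1 and Lhx9, which did not pass the test. They lie at chr17:25570637-25570936 on the minus strand for Sox8, chrX:86191525-86191824 on the plus strand for Nr0b1 and chr1:138842395-138842694 on the minus strand for Lhx9. The Lhx9 window lies around a start site inside the gene span of the count table.
Sox8: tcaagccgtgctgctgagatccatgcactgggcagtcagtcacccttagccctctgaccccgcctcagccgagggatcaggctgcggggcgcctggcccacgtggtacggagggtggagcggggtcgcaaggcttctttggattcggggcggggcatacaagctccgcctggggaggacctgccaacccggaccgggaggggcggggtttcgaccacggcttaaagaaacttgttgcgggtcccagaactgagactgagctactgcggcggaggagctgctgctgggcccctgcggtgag
Nr0b1: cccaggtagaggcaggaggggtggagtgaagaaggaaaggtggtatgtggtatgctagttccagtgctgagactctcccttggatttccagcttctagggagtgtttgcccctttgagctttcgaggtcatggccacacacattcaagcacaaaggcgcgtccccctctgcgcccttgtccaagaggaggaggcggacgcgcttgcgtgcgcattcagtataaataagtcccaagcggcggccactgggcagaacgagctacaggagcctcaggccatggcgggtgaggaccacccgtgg
Lhx9: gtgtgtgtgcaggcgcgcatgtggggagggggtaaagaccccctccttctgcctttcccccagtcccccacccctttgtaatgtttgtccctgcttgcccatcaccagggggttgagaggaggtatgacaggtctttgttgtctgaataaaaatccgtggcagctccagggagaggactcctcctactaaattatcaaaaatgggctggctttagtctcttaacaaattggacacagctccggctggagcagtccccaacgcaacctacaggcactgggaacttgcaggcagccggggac
These promoters were searched on both strands for the letters AACAAT, a core bound by SOX proteins, and for AAGGTCA, an element of NR5A1. AGATAA, a spelling of the element of the zinc finger family of GATA4, was searched in the same way. Other spellings of these elements were not searched. A match would be printed in capitals. None of the 3 motifs was found in these 3 windows, which says only that these letters are not there. Of 32851 promoters of the same length, 10.7% hold the SOX letters, 4.72% the NR5A1 letters and 11.2% the GATA letters. The GC content was 66.3% for Sox8, 58.7% for Nr0b1 and 55.3% for Lhx9, against a median of 52.7% over all promoters.

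SOX10 is known mainly from neural crest and glia, and can stand in for SOX9 in the gonad when it is forced on. Sox10 (Entrez 20665, chr15:79154913-79164490, minus strand) had 18.8, 76.4, 13.4, 19.9 and 16.0 normalized counts with vehicle and 10.1, 33.2, 28.5, 50.5 and 32.7 with GPI. The vehicle testis of mouse 2 stood far above the other vehicle testes, and GPI was the higher gonad in mice 3, 4 and 5. The log2 fold change was 0.28 with a 95% interval from -0.65 to 1.21, and was 0.73 without mouse 2 and -0.01 without mouse 4. Summed neural crest and glia markers stood at 33.0, 41.2, 28.8, 37.3 and 34.3 CPM (counts scaled to a library of 1000000) with vehicle and 29.8, 41.5, 33.3, 48.2 and 46.5 with GPI. Of 5 tested genes of this list, Erbb3 (log2 fold change 0.75) and Tubb3 (1.02) were higher and Fabp7 (-0.96) was lower. Their part in the Sox10 counts was not tested. Foxd3, a defining gene of early neural crest, had 0 counts in all 10 libraries.

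DMRT1 is a DM domain factor of Sertoli cells and of germ cells. Dmrt1 (Entrez 50796, chr19:25505706-25604328, plus strand) had 106, 181, 122, 129 and 120 normalized counts with vehicle and 88.4, 277, 175, 263 and 189 with GPI. Mouse 1 went the other way from mice 2 to 5, and the groups overlapped. Dmrt1 rose 1.44-fold (log2 fold change 0.53 ± 0.17 SE, higher in 4 of 5 mice), and the Benjamini-Hochberg adjusted p of edgeR's quasi-likelihood test was 0.0393. This call did not hold with total counts only, without the replicate block, or without any of mice 2, 3, 4 and 5, where the adjusted p from edgeR was 0.061, 0.0976, 0.102, 0.114, 0.186 and 0.107 in that order. Germ cell markers were lower with GPI, with values given below, and their part in the Dmrt1 counts was not tested.

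**Figure D2:**
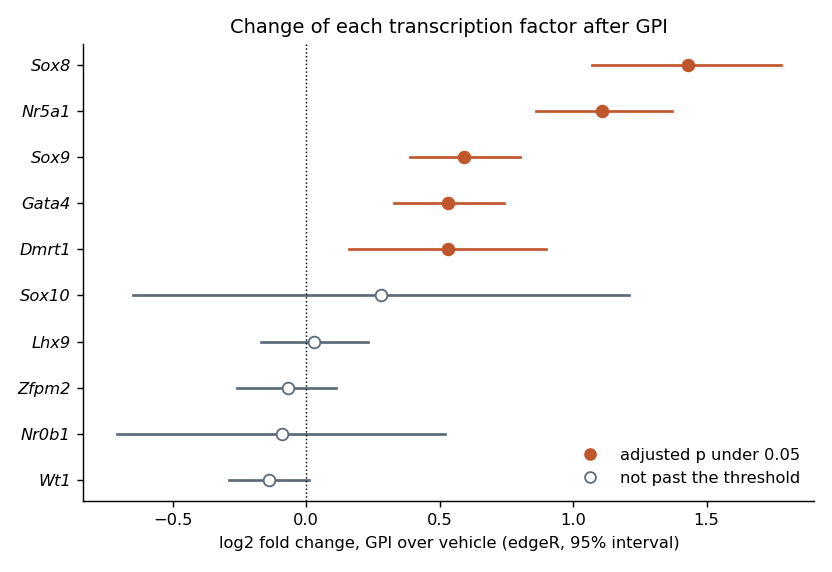
Log2 fold change of each transcription factor, GPI over vehicle, from edgeR with 95% intervals (horizontal axis), ordered by size. Filled points passed an adjusted p of 0.05; the intervals of Sox8, Nr5a1, Sox9, Gata4 and Dmrt1 lie above 0, and the widest interval is that of Sox10.

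Levels of different genes were compared per kilobase of the longest transcript, as CPM per kilobase. With vehicle the order ran from Wt1 (185 ± 15.2, SD, n = 5) and Gata4 (56.0 ± 11.2) to Lhx9 (24.1 ± 4.0), Sox9 (24.1 ± 4.18) and Zfpm2 (20.0 ± 2.54). Lower down came Nr5a1 (7.06 ± 1.64), Dmrt1 (4.57 ± 1.0), Sox8 (2.9 ± 0.621), Nr0b1 (1.58 ± 0.203) and Sox10 (0.843 ± 0.777). Lhx9, Sox9 and Zfpm2 overlapped as neighbours in that order, as did Nr5a1 with Dmrt1, Dmrt1 with Sox8, and Nr0b1 with Sox10. With GPI the level of Sox9 was 36.2 ± 4.59 (SD, n = 5), above every library of Lhx9 (24.4 ± 2.63), and Sox8 at 8.12 ± 2.77 stood next to Dmrt1 at 6.87 ± 2.63 with overlapping ranges.

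Ratios of counts within a library need no scaling between libraries. The 8 ratios were compared by an exact two-sided sign-flip permutation test over the 5 mice, whose smallest possible p of 0.0625 cannot pass 0.05. Zfpm2 counts were 49.8% to 80.4% of Gata4 counts in vehicle testes and 37.2% to 42.9% in GPI testes, without overlap. The log2 ratio of Zfpm2 to Gata4 was lower with GPI in 5 of 5 mice, by -0.61 on average (SD 0.24). Nr0b1 counts were 9.8% to 21.5% of those of Nr5a1 with vehicle and 4.47% to 7.82% with GPI, a difference in log2 ratio of -1.21 (SD 0.34) in 5 of 5 mice. Gata4 counts were 24.4% to 46.2% of Wt1 counts with vehicle and 49.3% to 55.8% with GPI (0.67, SD 0.37, 5 of 5 mice). In the SOXE group, Sox8 gained on Sox9 in 5 of 5 mice (0.81, SD 0.43), although the ranges overlapped. Each of these 4 ratios, and that of Amh to Sox9 (-0.53, SD 0.52), reached an exact permutation p of 0.0625 and an adjusted p of 0.1 over the 8 ratios. For Amh to Sox9 the differences were -1.02 and -1.18 in mice 1 and 5 but -0.15, -0.10 and -0.23 in mice 2 to 4, and the ranges overlapped, with 6.47% to 15.9% with vehicle and 3.18% to 9.26% with GPI. The remaining ratios did not keep 1 direction over the mice: Sox10 to Sox9 differed by -0.33 (SD 1.0; -0.54 to -0.03 when each mouse was left out in turn), Dmrt1 to Sox9 by -0.09 (SD 0.42) and Lhx9 to Wt1 by 0.17 (SD 0.25).

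**Figure D3:**
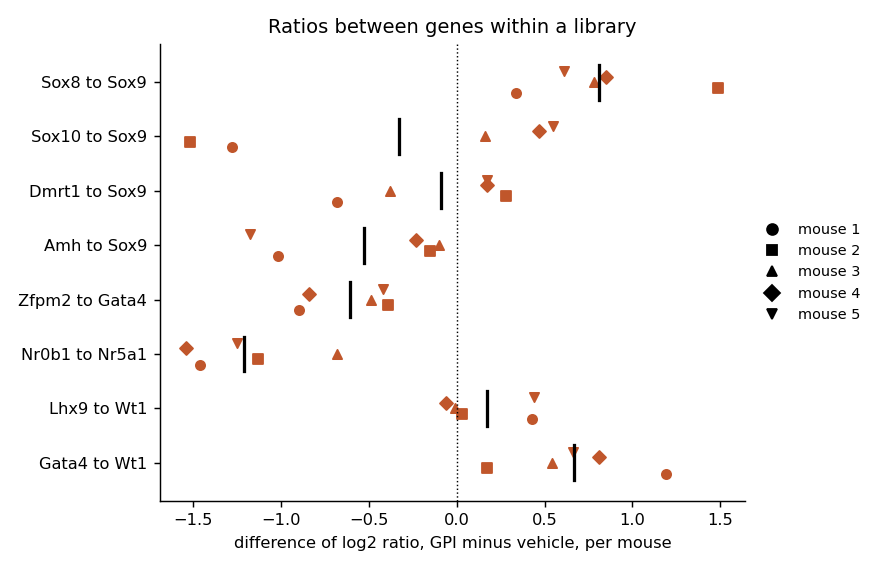
Difference between GPI and vehicle in the log2 ratio of 2 genes within a library (horizontal axis), for each of 5 mice (marker shapes), with the mean as a black bar. The mice lie on 1 side of 0 for Sox8 to Sox9, Amh to Sox9, Zfpm2 to Gata4, Nr0b1 to Nr5a1 and Gata4 to Wt1, and on both sides for the other 3 ratios.

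Genes whose response across the 5 mice was most like that of Sox9 were sought among 11097 tested genes that averaged 50 or more counts per library. The closest by root mean square difference of the log2 ratios were Fam20b (0.048), Prkci (0.0607), Eda2r (0.0624), Lsr (0.0857) and Kdm7a (0.092). For Sox8 they were Slc26a7 (0.226), Nlgn1 (0.257), Eps8 (0.257), Slc1a4 (0.273) and Mmd2 (0.287). The differences from Sox8 were larger than those from Sox9, and what sets their size was not tested. Every gene has a closest 5, and shared control of the listed genes was not tested. Since strand was not counted, reads of Kdm7a can include those of a gene on the other strand. Reads of Prkci can include those of a microRNA gene on the same strand.

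Other regulators of the gonadal ridge and of sex determination moved in both directions. Of 19 tested genes of 20 listed, 4 were higher and 5 lower, with a median log2 fold change of -0.11. Cited2, a cofactor of WT1 in the ridge, rose by 0.66 ± 0.11 on the log2 scale (SE), and Maf by 0.49 ± 0.09. Emx2, a homeobox gene of the urogenital epithelium, fell (log2 fold change -0.73 ± 0.13), as did Igf1r (-0.32 ± 0.07). Sry, the Y-linked switch that turns on Sox9 and is silent again in later testes, had 2 counts in the 10 libraries together and was not tested. The Y-linked genes Ddx3y, Kdm5d, Eif2s3y and Uty were counted in each library.

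The next list holds genes that Sertoli cells are known to express. Of 20 genes, 13 (65.0%) were higher and 1 (5.0%) was lower, with a median log2 fold change of 0.77. Cyp26b1, which degrades retinoic acid, had the smallest p and rose by 1.81 ± 0.13 (SE) on the log2 scale, and the next by p were Mro (0.89 ± 0.12), Gdnf (1.13 ± 0.15), Dhh (0.92 ± 0.15) and Hsd17b3 (1.23 ± 0.20). Inhbb, a subunit of inhibin and activin, rose by 0.62 ± 0.11. Amh, the hormone that removes the female ducts, did not pass the test, with 128 ± 52.4 normalized counts with vehicle and 138 ± 54.4 with GPI (SD, n = 5) and a log2 fold change of 0.08 with a 95% interval from -0.40 to 0.56. Sertoli cell markers, a list that holds Sox9 itself, were higher in 5 of 7 genes and lower in 0, and their summed level was 262, 412, 309, 389 and 433 CPM with vehicle and 297, 561, 592, 737 and 565 with GPI. Aard was the most abundant of them and none was at 0, and 6 of the 7 are also in the list of Sertoli cell genes above. Their part in the rise of Sox9, Sox8 and Dmrt1 was not tested.

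Among genes that NR5A1 controls in steroid-producing cells, 9 of 12 tested were higher and 0 were lower by edgeR, with a median log2 fold change of 1.0. At an unadjusted p under 0.05 edgeR gave 0 lower as well, and DESeq2 called 0 lower. Cyp17a1 rose by 3.90 ± 0.29 (SE), Cyp11a1 by 2.90 ± 0.27, Fdxr by 1.63 ± 0.11, Fdx1 by 1.41 ± 0.13 and Scarb1 by 1.05 ± 0.11 on the log2 scale. Fetal Leydig markers were higher in 4 of 4 tested genes, and their sum was 104, 219, 323, 161 and 430 CPM with vehicle and 781, 820, 1280, 1470 and 1050 with GPI. Hsd3b1 was the most abundant of these markers with vehicle (139 CPM) and Cyp11a1 with GPI (476 CPM), and none was at 0 in a whole group. All 5 of these markers are also in the list of NR5A1 target genes, so the lists are not separate evidence. Their part in the rise of Nr5a1 was not tested.

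Supporting cell genes of the ovary were called in both directions. Of 13 tested genes of 15, 2 (15.4%) were higher and 4 (30.8%) lower, against 11.1% and 11.9% of all tested genes. Their median log2 fold change was -0.13. Wnt4 (-0.78 ± 0.11 SE), Runx1 (-1.11 ± 0.16) and Lef1 (-1.01 ± 0.20) fell, while Hsd17b7 (0.86 ± 0.16) and Bmp2 (0.61 ± 0.15) rose. Without the replicate block Bmp2 had an adjusted p of 0.0574 from edgeR, and without mouse 4 one of 0.0539. Foxl2, a defining gene of granulosa cells, stayed between 10 and 49 counts and had a log2 fold change of -0.54 with a 95% interval from -1.48 to 0.39, and of -0.87 to -0.15 when each mouse was left out in turn.

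Many relatives of the 10 factors had too few counts to be tested. Of 16 SOX genes outside the group 11 were tested and 5 were not, and 0 were higher and 5 lower by edgeR, with a median log2 fold change of -0.11. Sox17 (-3.08 ± 0.26 SE), Sox7 (-2.35 ± 0.24) and Sox18 (-1.95 ± 0.27) are known from endothelial cells, and Sox15 (-2.22 ± 0.50) and Sox13 (-0.77 ± 0.19) fell too. Sox13 had an adjusted p of 0.0547 from edgeR without mouse 3, and reads of Sox15 can include those of Mpdu1 on the other strand. Without mouse 2, 4 SOX genes were called lower, and Sox15 was not among the genes tested. The count was also 4 without mouse 3, and it was 6 by DESeq2 and with no low-count filter. Of 25 paralogs of the other factors 8 were tested and 17 were not, and 0 were higher and 2 lower by edgeR, Gata2 (-1.38 ± 0.31) and Nr5a2 (-1.58 ± 0.45), with a median of -0.09. In both lists edgeR gave 0 higher at an unadjusted p under 0.05 and DESeq2 called 0 higher, but without mouse 2 edgeR called 1 SOX gene higher. Nr5a2 had adjusted p-values of 0.0676, 0.0775 and 0.0859 from edgeR without mouse 3, 4 or 5. Gata6 had a log2 fold change of -0.11 with a 95% interval from -0.29 to 0.07, and Nr0b2, with at most 18 counts, one of 0.97 from -0.35 to 2.28. Reads of Gata5 and Gata6 can include those of Gata5os and Gata6os on the other strand. Gata5 had a log2 fold change of -1.51 (95% interval -2.87 to -0.14) and an adjusted p of 0.109 from edgeR, which was 0.0247 without mouse 2 and 0.0438 by DESeq2. Its adjusted p ran from 0.0247 to 0.307 over the alternatives.

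Markers of endothelial cells, germ cells, macrophages and erythroid cells were lower with GPI. Endothelial markers were lower in 8 of 8 genes and their sum was 624, 643, 596, 687 and 610 CPM with vehicle and 69.4, 81.5, 56.4, 45.0 and 57.6 with GPI, with Cdh5 the most abundant with vehicle (229 CPM) and Kdr with GPI (22.9 CPM). Germ cell markers were lower in 5 of 7 tested genes, with sums of 138, 233, 171, 222 and 123 with vehicle and 73.6, 58.9, 62.0, 78.4 and 75.4 with GPI, and Kit, which somatic cells also express, was the most abundant. Kit alone averaged 69.5 CPM of a mean sum of 177 with vehicle and 62.5 of 69.7 with GPI, and did not pass the test (log2 fold change -0.16). The 5 markers that fell were Dppa3 (-5.20 on the log2 scale), Mael (-5.17), Sall4 (-4.89), Dazl (-4.62) and Ddx4 (-2.72), and Dnd1 (-0.50) did not pass. Macrophage markers were lower in 6 of 7 genes, with sums of 69.2, 44.4, 51.0, 49.6 and 50.8 with vehicle and 28.5, 22.7, 23.0, 11.7 and 15.3 with GPI, and Ptprc was the most abundant with vehicle (13.8 CPM) and Cd68 with GPI (7.32 CPM). Erythroid markers were lower in 6 of 6 tested genes, with sums of 138, 187, 344, 318 and 266 with vehicle and 110, 65.6, 61.0, 65.9 and 155 with GPI, led by Hbb-y, and reads of globin genes may be shared between near-identical copies. None of these markers was at 0 in a whole group. The part of these cell types in the counts of the transcription factors was not tested. The interstitial progenitor sum was 1320 ± 92.0 CPM with vehicle and 1350 ± 105 with GPI (SD, n = 5), with 1 of 6 genes higher and 2 lower. The coelomic epithelium sum was 62.7 ± 12.3 and 65.6 ± 7.06, with 0 of 5 tested genes called, and the mesonephric tubule and duct sum was 34.8 ± 20.5 and 25.1 ± 5.09, with 0 of 2 called.

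**Figure D4:**
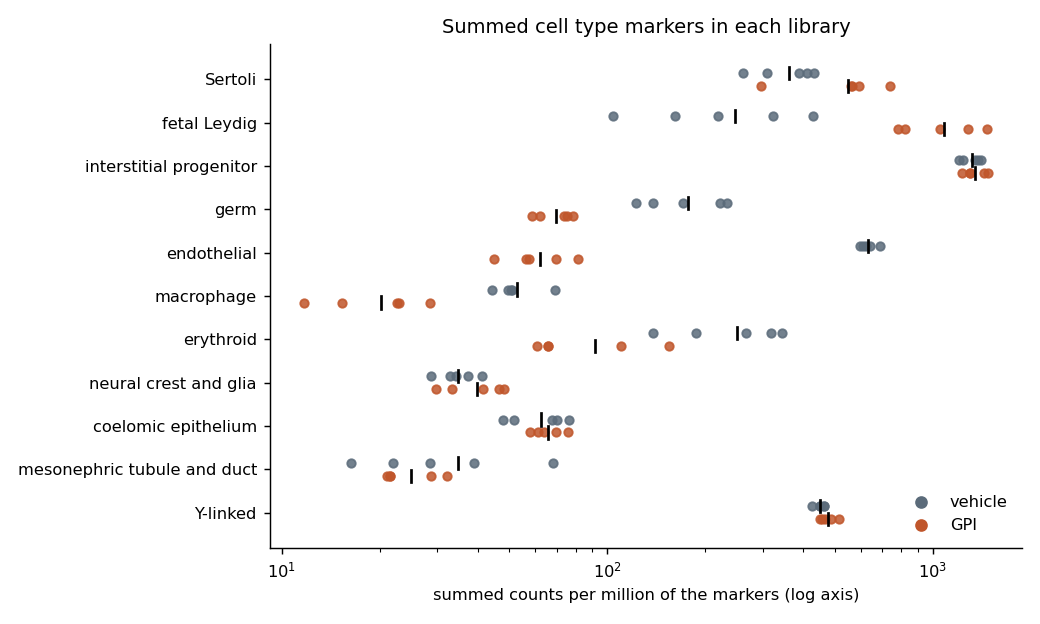
Summed CPM of the markers of each cell type and of Y-linked genes (horizontal log axis) in 5 vehicle and 5 GPI libraries, with the mean of each group as a black bar. Fetal Leydig sums are higher with GPI in all 5 libraries, endothelial, germ and macrophage sums are lower in all 5, and Y-linked sums overlap at 450 ± 16.0 with vehicle and 475 ± 27.0 with GPI.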

How the data were processed

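Whole testes of 5 mice were measured as 10 libraries, and groups and pairs follow the labels of treatment and animal. The authors aligned reads to mm10 with STAR (2.5 in the submitters' processing notes), counted them per RefSeq gene without regard to strand with featureCounts of Subread 1.5.0-p1, and deposited raw counts; 0 other value columns were found. From these counts, genes passing filterByExpr (minimum count 10, total 15) were tested by edgeR 4.0.16 in R 4.3.3 (TMM scaling, quasi-likelihood test, mouse plus treatment, Benjamini-Hochberg adjustment, threshold 0.05), a procedure tested on simulated data. A standard error was obtained as the size of the log2 fold change over the root of its F statistic. Log2 ratios in single mice used a prior count of 2, and ratios between genes a pseudocount of 0.5. Python 3.11.15, pandas 2.3.3 and scipy 1.17.1 were used, and DESeq2 1.42.0 as an alternative beside RLE factors, total counts, no low-count filter, no replicate block and each mouse left out. Transcript lengths are from GENCODE M21.

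Pairing comes from the animal label. Deviations from the treatment mean correlated by 0.06 on average within a mouse and -0.015 between mice. Libraries of the same treatment were not duplicates, with chi-square per degree of freedom from 6.42 to 27.8. Counts carry no molecular identifiers, so errors given are those between mice.

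The members and lists were chosen with earlier results of these data known. Named are the 10 factors, the up to 5 genes of each list with the smallest p, list genes that the study names, and the 5 genes most like Sox9 and Sox8. Some genes that this rule or the marker lists take are not reported here.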

Additional observations from a re-analysis of the deposited data

Results flagged for a closer look

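In 8 of 134 groups of 5 values, 1 sample stood far from the others; chance gives about 1 in 20. The vehicle testis of mouse 2 had 76.4 normalized counts of Sox10, against 13.4 to 19.9 in the other vehicle testes, and its log2 ratio of Sox10 to Sox9 was -4.33, against -6.33 to -5.85. The GPI testis of mouse 1 had a log2 ratio of Sox8 to Sox9 of -3.57, against -2.64 to -2.36 in the other GPI testes, and of Amh to Sox9 of -4.97, against -3.83 to -3.43. The same testis had 220 normalized counts of Runx1, against 86.3 to 122. Emx2 stood at 791 in the vehicle testis of mouse 5, against 993 to 1061, and Sox7 at 1053 in that of mouse 4, against 673 to 758. Macrophage markers summed to 69.2 CPM in the vehicle testis of mouse 1, against 44.4 to 51.0.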

How the results depend on the processing

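Across the 10 alternatives, Sox8, Nr5a1, Sox9 and Gata4 were called higher in each, with log2 fold changes of 1.33 to 1.55, 1.04 to 1.24, 0.50 to 0.66 and 0.45 to 0.65. The count of factors called higher was 4 or 5. Dmrt1 lost its call with total counts (log2 fold change 0.48) and without the replicate block (0.60); leaving out each mouse gave 0.40 to 0.69. With total counts, Wt1 (-0.19) became 1 factor called lower, and Lhx9 changed sign (-0.02). Leaving out each mouse gave -0.07 to 0.09 for Lhx9, -0.01 to 0.73 for Sox10, -0.25 to 0.0 for Nr0b1, -0.12 to 0.29 for Amh and -0.18 to 0.06 for the log2 ratio of Dmrt1 to Sox9; the cause was not tested.

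Without the replicate block, pairing is given up and the exact permutation over 10 libraries allows smaller p-values: the ratios of Sox8 to Sox9 (0.81), Zfpm2 to Gata4 (-0.61), Nr0b1 to Nr5a1 (-1.21) and Gata4 to Wt1 (0.67) then had an unadjusted p under 0.05. Adjusted over the 8 ratios, the exact permutation p was 0.0635 for Sox8 to Sox9, which does not pass, and 0.0212 for each of the other 3. For Amh to Sox9 (-0.53) the unadjusted exact permutation p without the block was 0.175. Also without the block, 1 ovarian supporting cell gene was called higher in place of 2, 12 Sertoli output genes higher in place of 13 and 4 ridge regulators lower in place of 5. The block changed no other call of a factor. Over all genes, 3198 were called, 3108 without the block, 3202 by DESeq2 and 2311 to 3080 with a mouse left out, which has fewer samples; calls higher ran from 969 to 1430 there. With a mouse left out, calls lower were 3 to 6 for ridge regulators, 0 to 1 for Sertoli output genes and 1 to 3 for paralogs, and calls higher 0 to 1 for SOX genes and 1 to 3 for ovarian genes. Sox10 and Nr0b1 had the fewest counts of the factors, 9 to 64 and 26 to 52 per library, and the widest intervals; how far depth or the spread between mice sets these was not tested.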
